A study of Mus musculus with 30 samples.

Results

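S100a8, S100a9, Csf3r, Cxcr2, Trem1, Clec4d, Clec4e and Irg1 are 8 of the 46078 genes in the count table, and were followed by symbol across 30 libraries of mouse colon. They were chosen by their measured counts in these same libraries, which earlier results had shown to be low in vehicle-treated mice and high at 9 weeks, so their levels across the treatment groups are a description and carry no test. Each library came from the scraped epithelial layer of the non-tumour colon of 1 wild-type C57BL/6J mouse. Female and male mice received vehicle or AOM/DSS and made up 6 groups of 5. AOM (azoxymethane) is a carcinogen that was injected once at 10 mg/kg. DSS (dextran sulfate sodium) is an irritant of the colon lining that was given in the drinking water at 2.5% in 3 cycles. Treated mice were killed at 9 or 15 weeks, and vehicle-treated mice at 9 weeks, so treatment and time cannot be told apart in any comparison of 15 weeks with vehicle. The libraries hold bulk RNA, in which fewer cells of a type and less RNA per cell cannot be told apart.

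Neutrophils are short-lived white blood cells that leave the blood for inflamed tissue, follow chemokines through receptors such as Cxcr2, and depend on the cytokine G-CSF, whose receptor is Csf3r. S100a8 and S100a9 pair as calprotectin, a cytosolic protein of neutrophils that binds metal ions and is measured in stool as a sign of gut inflammation. Trem1, Clec4d and Clec4e are surface receptors of neutrophils, monocytes and macrophages that amplify or start responses to microbes, and Irg1, also named Acod1, is the mitochondrial enzyme that makes itaconate from cis-aconitate in activated myeloid cells. None of these genes is a marker of neutrophils alone, since monocytes and macrophages can also express them.

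On GRCm38, S100a8 lies at chr3:90668978-90670035 on the forward strand and S100a9 at chr3:90692632-90695721 on the reverse strand, with 22596 bases between them. Clec4d at chr6:123262107-123275268 and Clec4e at chr6:123281789-123289870 are also neighbours on opposite strands, 6520 bases apart. Csf3r lies at chr4:126024550-126044440, Cxcr2 at chr1:74153989-74161246, Trem1 at chr17:48232768-48246924 and Irg1 at chr14:103046977-103056573, each on the forward strand. The 250 bases before the RefSeq start are shown for 4 of the genes, the calprotectin pair, Clec4e and Irg1, because these had the highest counts at 9 weeks or the largest fall afterwards. RefSeq gives the sequences on GRCm38.p6, and the RefSeq starts of S100a8 and Irg1 lie inside the longer gene models of the count table. The windows are chr3:90668821-90669070 on the forward strand, chr3:90695722-90695971 on the reverse strand, chr6:123289872-123290121 on the reverse strand and chr14:103046762-103047011 on the forward strand. Each is written 5′ to 3′, with matches to GAGGAA, the core bound by the myeloid factor PU.1, or to TTNNGNAA, a form of the C/EBP site, in capitals on either strand.
S100a8: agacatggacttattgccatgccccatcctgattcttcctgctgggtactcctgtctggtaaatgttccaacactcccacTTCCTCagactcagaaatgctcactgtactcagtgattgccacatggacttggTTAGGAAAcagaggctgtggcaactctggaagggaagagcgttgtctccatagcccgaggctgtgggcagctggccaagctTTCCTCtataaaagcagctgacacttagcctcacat
S100a9: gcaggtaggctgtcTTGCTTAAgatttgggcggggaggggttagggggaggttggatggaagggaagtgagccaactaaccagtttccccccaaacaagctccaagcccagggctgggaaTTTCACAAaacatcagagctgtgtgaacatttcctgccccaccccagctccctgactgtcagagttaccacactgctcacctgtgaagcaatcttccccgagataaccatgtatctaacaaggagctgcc
Clec4e: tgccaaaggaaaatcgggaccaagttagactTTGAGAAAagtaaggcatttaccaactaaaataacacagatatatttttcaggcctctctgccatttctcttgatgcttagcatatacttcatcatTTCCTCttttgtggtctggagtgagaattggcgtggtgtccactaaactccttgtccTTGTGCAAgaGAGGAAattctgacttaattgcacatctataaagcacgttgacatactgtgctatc
Irg1: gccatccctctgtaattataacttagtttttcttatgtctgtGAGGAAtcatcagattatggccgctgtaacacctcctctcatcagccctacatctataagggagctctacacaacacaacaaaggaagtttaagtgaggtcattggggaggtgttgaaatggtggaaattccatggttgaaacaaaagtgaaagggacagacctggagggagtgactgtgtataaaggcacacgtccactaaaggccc
Over the 8 windows, GAGGAA or its reverse complement was found in 7, S100a9 being the exception, and in 23.3% of 32851 RefSeq promoter windows of the same length. TTNNGNAA was found in 5 of the 8 (S100a8, S100a9, Trem1, Clec4d and Clec4e) and in 36.8% of all windows. TGANTCA, the AP-1 site, was found in 0 of the 8 and in 6.75% of all windows. A match of letters is a description of the window and not a measured site.

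The libraries held 9265804 to 30806392 counts on genes. Levels are given as counts, or as CPM, which are counts scaled to the library total. Among the 240 values of the 8 genes in the 30 libraries, 58 were 0 counts. A limit of 3 counts per library was used as the floor for any group that stayed at or below it, and covers counting error only. The library of female 9-week replicate 5 and the library of male vehicle replicate 1 stood apart from their groups. Female 9-week replicate 5 had the lowest summed macrophage markers of the 10 9-week libraries, 25.6 CPM against 57.7 to 105 CPM, and the highest summed markers of colon epithelium, 24085 CPM against 10145 to 13943 CPM. Male vehicle replicate 1 held 1085 counts of Krt5 and 2444 of Krt13, keratins of stratified epithelium, against at most 2 and 71 counts in any other library, and its summed smooth muscle markers were 3794 CPM against at most 375 CPM elsewhere. Several results that rest on these libraries are given with and without them.

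S100a8 and S100a9, the calprotectin subunits, were near absent in vehicle-treated mice, were the most abundant of the 8 genes at 9 weeks after scaling by length, and lay in between at 15 weeks. S100a8 had 0 counts in all 5 vehicle-treated females and 16, 2, 0, 1 and 0 counts in vehicle-treated males, in the order of replicates 1 to 5. At 9 weeks it had 102, 136, 65, 611 and 0 counts in females and 225, 324, 199, 45 and 24 counts in males. Every male 9-week library exceeded every male vehicle library, and of the females only replicate 5, at 0 counts, overlapped with vehicle. At 15 weeks S100a8 had 3, 2, 15, 9 and 43 counts in females and 2, 11, 39, 7 and 127 counts in males. The highest 15-week library was male replicate 5, which lay above 2 of the 5 males at 9 weeks. Mean S100a8 over both sexes was 0.0693 ± 0.178 CPM in vehicle, 7.25 ± 8.20 CPM at 9 weeks and 0.961 ± 1.29 CPM at 15 weeks (SD, n = 10 each). The 9-week mean was thus 105-fold the vehicle mean, or at least 51.8-fold against the floor without male vehicle replicate 1, which held most of the vehicle counts. In females alone, where vehicle was at 0, the mean at 9 weeks was at least 51.3-fold the floor.

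S100a9 had 2, 0, 0, 0 and 0 counts in vehicle-treated females and 58, 0, 0, 10 and 4 counts in vehicle-treated males. At 9 weeks it had 207, 211, 140, 1288 and 2 counts in females and 443, 727, 382, 58 and 88 counts in males. The 58 counts of male vehicle replicate 1 (2.07 CPM) were the only vehicle value above that of any male at 9 weeks, male replicate 4 (58 counts, 1.88 CPM). At 15 weeks S100a9 had 23, 2, 44, 2 and 55 counts in females and 4, 19, 34, 1 and 247 counts in males, again highest in male replicate 5. Mean S100a9 was 0.267 ± 0.643 CPM in vehicle, 14.9 ± 17.5 CPM at 9 weeks and 1.58 ± 2.48 CPM at 15 weeks (SD, n = 10 each). The 9-week mean was 55.8-fold the vehicle mean and 223-fold without male vehicle replicate 1, and 9.44-fold the 15-week mean, or 17.9-fold without male 15-week replicate 5. In the 9 libraries at 9 weeks with at least 20 counts of the pair, S100a9 counts were 1.29 to 3.67 times those of S100a8, with a median of 2.03. At 15 weeks the ratio spread from 0.872 to 7.67 over 6 libraries, with a median of 1.84.

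Csf3r, the receptor for G-CSF, was detected in 9 of the 10 vehicle libraries, more often than any of the other 7 genes. It had 6, 3, 1, 1 and 0 counts in vehicle-treated females and 24, 2, 10, 9 and 16 counts in vehicle-treated males. The 9-week libraries held 141, 105, 55, 507 and 6 counts of Csf3r in females and 245, 278, 226, 39 and 83 counts in males. Within each sex every 9-week library exceeded every vehicle library in CPM, whereas the 0.294 CPM of female 9-week replicate 5 lay among the vehicle-treated males. In females this rested on equal counts, 6 in 9-week replicate 5 and 6 in vehicle replicate 1 (0.215 CPM), set apart by depth alone. At 15 weeks Csf3r had 1, 9, 16, 12 and 48 counts in females and 3, 20, 16, 1 and 61 counts in males, overlapping with vehicle in both sexes. Its means were 0.272 ± 0.288, 6.97 ± 6.65 and 0.712 ± 0.720 CPM in vehicle, at 9 weeks and at 15 weeks (SD, n = 10 each), so that 9 weeks was 25.7-fold vehicle and 9.79-fold 15 weeks.

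Cxcr2, the receptor for Cxcl1, Cxcl2 and related chemokines, had the lowest CPM of the 8 genes at 9 weeks. It had 0 counts in all vehicle-treated females and 4, 1, 2, 2 and 5 counts in vehicle-treated males. After 9 weeks it had 41, 18, 17, 112 and 0 counts in females and 51, 44, 60, 11 and 13 counts in males. All 5 males at 9 weeks lay above all vehicle-treated males, and in females replicate 5 alone stayed at the vehicle level of 0. At 15 weeks it had 0, 0, 1, 2 and 3 counts in females and 0, 0, 5, 0 and 10 counts in males, so 5 of the 10 libraries were at 0. In females both vehicle and 15 weeks were at or below the floor, and no fold is given between them. Mean Cxcr2 was 0.0540 ± 0.0717, 1.51 ± 1.44 and 0.0751 ± 0.111 CPM in vehicle, at 9 weeks and at 15 weeks (SD, n = 10 each). The 9-week mean was 27.9-fold vehicle and 20.1-fold 15 weeks, or 32.6-fold 15 weeks without male 15-week replicate 5.

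Trem1, an immunoglobulin-type receptor that amplifies Toll-like receptor signals through the adaptor Tyrobp, had 4, 0, 0, 0 and 0 counts in vehicle-treated females and 1, 7, 1, 1 and 2 counts in vehicle-treated males. In the 9-week libraries it had 33, 33, 23, 208 and 0 counts in females and 81, 82, 53, 15 and 26 counts in males. At 15 weeks it had 1, 0, 2, 0 and 5 counts in females and 1, 13, 3, 1 and 30 counts in males. Female 9-week replicate 5 was the only treated library of that time inside the vehicle range, and male 15-week replicates 2 and 5 reached the range of the males at 9 weeks. Mean Trem1 was 0.0639 ± 0.0957, 2.30 ± 2.67 and 0.210 ± 0.321 CPM (SD, n = 10 each), a 36.1-fold difference between 9 weeks and vehicle, or 61.8-fold without male vehicle replicate 2. The 9-week mean was 11-fold the 15-week mean, or 19.1-fold without male 15-week replicate 5.

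Clec4d and Clec4e are C-type lectins that signal through the adaptor Fcer1g, and Clec4e, also named Mincle, binds glycolipids of mycobacteria and fungi. Clec4d had 0, 2, 0, 0 and 0 counts in vehicle-treated females and 2, 2, 0, 0 and 1 in vehicle-treated males, never above the floor. Its 9-week counts were 38, 36, 17, 145 and 2 in females and 71, 82, 63, 26 and 13 in males, and at 15 weeks 1, 0, 5, 2 and 6 in females and 0, 10, 15, 0 and 11 in males. Clec4d was the 1 gene of the 8 for which all 10 libraries at 9 weeks exceeded all 10 vehicle libraries in CPM. This rested on equal counts below the floor, 2 in female 9-week replicate 5 (0.0981 CPM) and 2 in male vehicle replicate 2 (0.0866 CPM). Depth alone set them apart. In females S100a9 and Csf3r were so separated too, again by depth alone, at 2 against 2 and 6 against 6 counts. In males all genes but S100a9 were so separated. The 9-week mean of Clec4d, 2.04 ± 1.89 CPM (SD, n = 10), was at least 14.9-fold the vehicle floor and 10.8-fold the 15-week mean of 0.189 ± 0.200 CPM.

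Clec4e had 1, 0, 0, 0 and 0 counts in vehicle-treated females and 2, 5, 0, 5 and 2 counts in vehicle-treated males. At 9 weeks it had 119, 44, 65, 463 and 0 counts in females and 202, 288, 126, 15 and 54 counts in males, and at 15 weeks 0, 0, 2, 0 and 10 in females and 1, 8, 6, 2 and 11 in males. No library at 15 weeks had more than 11 counts, below every male at 9 weeks and every female but replicate 5. Mean Clec4e was 0.0588 ± 0.0807, 5.75 ± 6.44 and 0.159 ± 0.159 CPM in vehicle, at 9 weeks and at 15 weeks (SD, n = 10 each). Its 9-week mean was 97.7-fold vehicle and 36.1-fold 15 weeks, the largest fold of the 8 genes between the 2 times of treatment. Its neighbour Clec4d, at 2.04 CPM, lay below it at 9 weeks, whereas at 15 weeks the 10 libraries summed to 40 counts of Clec4e and 50 of Clec4d.

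Irg1 had 10, 0, 0, 1 and 0 counts in vehicle-treated females and 0, 4, 0, 0 and 2 counts in vehicle-treated males. Its levels at 9 weeks were 7.89, 4.82, 5.22, 45.5 and 0.0490 CPM in females, and 16.1, 28.4, 11.2, 1.04 and 3.44 CPM in males, which are 1 count in female replicate 5 and 1027 counts in female replicate 4. At 15 weeks it had 2, 6, 21, 18 and 47 counts in females and 3, 17, 22, 0 and 76 counts in males. All 5 males at 9 weeks exceeded all vehicle-treated males, 4 of 5 females exceeded all vehicle-treated females, and at 15 weeks the ranges overlapped with vehicle in both sexes. Mean Irg1 was 0.0656 ± 0.117, 12.4 ± 14.4 and 0.794 ± 0.828 CPM in vehicle, at 9 weeks and at 15 weeks (SD, n = 10 each). The 9-week mean was 188-fold vehicle, or 374-fold without female vehicle replicate 1, and 15.6-fold the 15-week mean. Irg1 counts were 0.498 to 1.07 times those of S100a9 in 9 libraries at 9 weeks, with a median of 0.860. Male vehicle replicate 1, with 58 counts of S100a9, had 0 of Irg1.

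**Figure D1:**
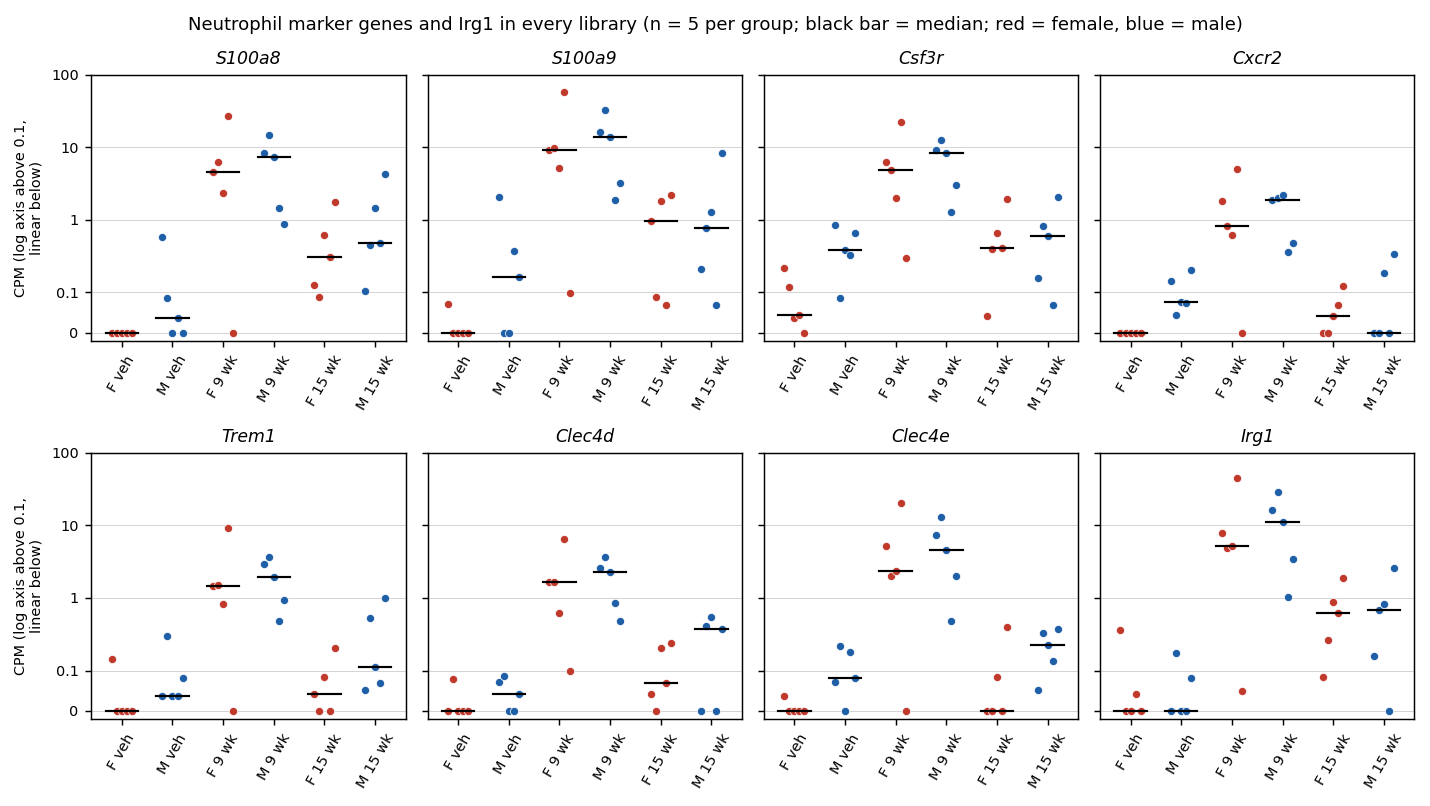
Each point is the level of 1 gene in 1 library, in CPM on an axis that is logarithmic above 0.1 and linear below, for the 6 groups of 5 mice (red, female; blue, male), and the black bar is the group median. All 8 genes were highest at 9 weeks, where female replicate 5 lay at the bottom of its group and female replicate 4 at the top.

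The model of all 30 libraries described the same order, with the caution that these contrasts chose the genes. A gene was called when its adjusted p in edgeR's quasi-likelihood test lay below 0.05, when it changed by more than 0.4 on the log2 scale, and when its mean FPKM reached 1 in either group. At 9 weeks against vehicle with the sexes pooled, 6 of the 8 genes were called higher, where 5.51% of all 16261 tested genes were. Cxcr2 and Trem1 missed only the FPKM minimum, and without it all 8 were called, against 8.05% of tested genes. Their fitted log2 fold changes ran from 5.00 (Csf3r) to 8.03 (S100a8), with a median of 6.53, or 6.51 with Clec4d at its bound, where the median of all tested genes was −0.02. S100a8 and Cxcr2 were at 0 in every vehicle-treated female, where the fit gave 10.6 and 8.28, against 5.49 and 3.63 in males. The size of their fitted changes is thus not a bound, also where the sexes were pooled. Within females 6 of the 8 were called higher (2.42% of tested genes), and within males 6 (4.42% of tested genes). The female count was 3 without female 9-week replicate 4 and 0 in a fit of the compared libraries alone, and the male count was 3 without male 9-week replicate 2. All 10 libraries at 9 weeks exceeded all 10 vehicle libraries for 1 of the 8 genes, beside 0.861% of tested genes. The same was so for 3 of the 8 in females (2.71% of tested genes) and for 7 of the 8 in males (5.32% of tested genes). Over both sexes and in females, these separations rested on libraries with equal counts that depth alone set apart. Without female 9-week replicate 5 and male vehicle replicate 1, chosen after the values were seen, all 8 genes were separated, beside 3.13% of tested genes. The 9-week means without these libraries were 37.3-fold vehicle for Csf3r, 37.9-fold for Cxcr2, 38.2-fold for Trem1 and 111-fold for Clec4e. They were 188-fold vehicle for Irg1 and 248-fold for S100a9, and at least 57.6-fold the floor for S100a8 and 16.1-fold for Clec4d.

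At 15 weeks against vehicle, S100a8 and S100a9 were called higher, 2 of the 8 where 3.46% of tested genes were, and Irg1 and Clec4d joined them without the FPKM minimum (4 of 8, 4.29% of tested genes). The 2 calls rested on male 15-week replicate 5, without which 0 of the 8 were called. Mean S100a8 was 13.9-fold vehicle at 15 weeks, 8.57-fold without male 15-week replicate 5 and at least 6.87-fold without male vehicle replicate 1. Mean S100a9 was 5.91-fold vehicle, 3.11-fold without male 15-week replicate 5 and 23.6-fold without male vehicle replicate 1. Irg1 was 12.1-fold vehicle, or 24.0-fold without female vehicle replicate 1. Within 1 sex edgeR called 0 of the 8 at 15 weeks against vehicle, in females (0.0861% of tested genes) and in males (4.37% of tested genes), with 4 and 3 of the 8 at an unadjusted p under 0.05 and 1 called by DESeq2 in each sex. Only S100a9 in females (1.31), and S100a8 (1.91) and S100a9 (2.68) in males, reached the FPKM minimum, so the other genes could not be called.

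At 15 weeks against 9 weeks, 6 of the 8 genes were called lower (1.91% of tested genes) and all 8 without the FPKM minimum (3.83% of tested genes). The fitted log2 fold changes ran from −5.12 (Clec4e) to −2.93 (S100a8). The count fell to 3 without female 9-week replicate 4 or without male 9-week replicate 2. In females alone edgeR called 0 of the 8 (0% of tested genes), with 8 at an unadjusted p under 0.05 and 3 called by DESeq2. Without female 9-week replicate 5, 6 of the 8 were called in females. In males alone edgeR also called 0 of the 8 (0% of tested genes), with 7 at an unadjusted p under 0.05 and 2 called by DESeq2. These contrasts share the 9-week libraries with those above, so a high 9-week library enters both.

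Per length, the levels at 9 weeks fell from S100a9 to Cxcr2. Mean TPM, the StringTie estimate scaled to the same total in each library, was 19.4 ± 23.7 for S100a9, 10.3 ± 12.1 for S100a8 and 3.24 ± 3.87 for Irg1 (SD, n = 10). It was 1.40 ± 1.37 for Csf3r, 1.37 ± 1.57 for Clec4e, 0.995 ± 0.976 for Clec4d, 0.557 ± 0.642 for Trem1 and 0.328 ± 0.319 for Cxcr2. The SD of each gene was about as large as its mean. Differences within the same libraries are the closer measure of the order, since all 8 genes share the mice, and S100a9 exceeded S100a8 in 9 of 10 libraries and S100a8 exceeded Irg1 in 9, with 1 tie at 0 in each. Irg1 exceeded Csf3r in 9 of 10, whereas Csf3r exceeded Clec4e, and Clec4e exceeded Clec4d, in only 6 of 10. Clec4d exceeded Trem1 in 9 of 10, by 0.438 ± 0.380 TPM (mean ± SD of the differences), and Trem1 exceeded Cxcr2 in 7. The mean difference was smaller than the SD of the differences for each of the other 6 pairs of neighbours. TPM was listed at 0 for 47 of the 240 values although reads were counted, up to 13 of them.

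The mice treated for 9 weeks differed from one another, and the 8 genes differed together. Female replicate 4 was the highest of the 10 libraries for all 8 genes and held 31.5% to 39.99% of their summed CPM, and female replicate 5 was the lowest for all 8. Male replicate 2 was second for 7 genes, and male replicate 3 for Cxcr2. Female replicate 4 also had the highest summed markers of macrophages (105 CPM), monocytes (26.1 CPM), dendritic cells (13.2 CPM) and T cells (22.1 CPM) of the 10. Female replicate 5 had the lowest sums for macrophages, monocytes (4.56 CPM), dendritic cells (2.50 CPM), B cells (5.93 CPM), plasma cells (74.8 CPM) and smooth muscle (22.6 CPM), and the highest for eosinophils (10.9 CPM) and red blood cells (35.7 CPM). The part of these other cells in the levels of the 8 genes was not tested. Over the 28 pairs of genes, Pearson's r of log2 CPM was 0.915 to 0.996 across the 10 libraries at 9 weeks, with a median of 0.971, and 0.839 to 0.991 without female replicate 5. Across the 10 libraries at 15 weeks it was 0.531 to 0.958, with a median of 0.724. These values describe libraries that share their depth and their mix of cells.

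**Figure D2:**
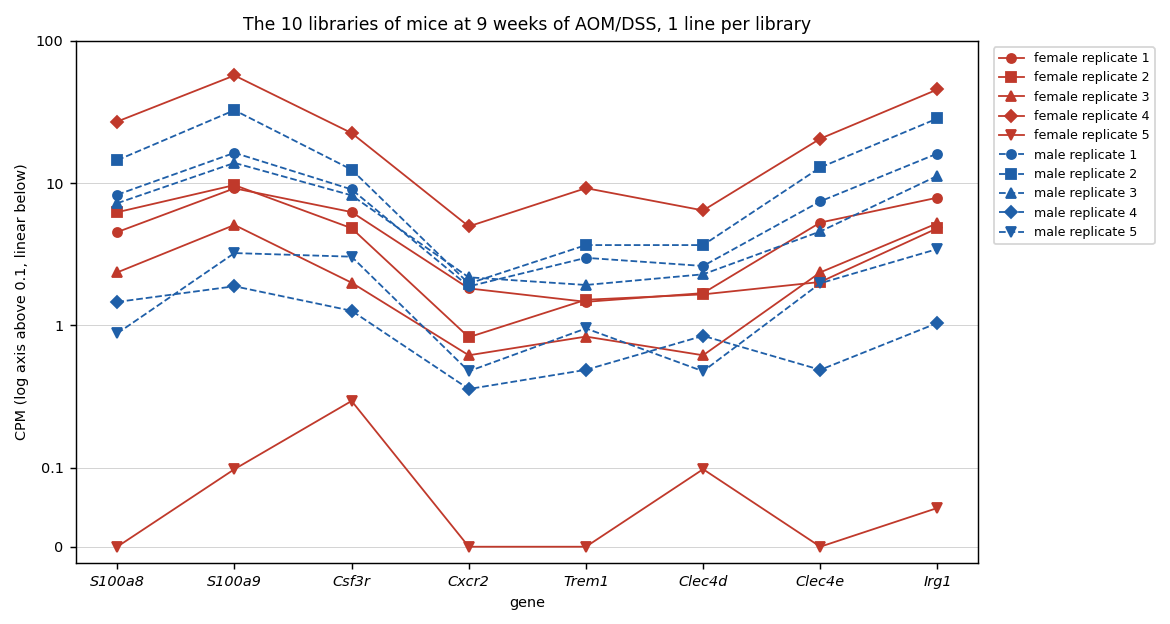
Each line joins the 8 genes' levels in 1 of the 10 libraries at 9 weeks, on the same CPM scale for all genes. The lines keep nearly the same order from gene to gene, with female replicate 4 on top and female replicate 5 at the bottom for all 8.

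Over all 30 libraries, the genes most like the mean of the 8 were Il1b (r = 0.979), Cxcl2 (0.975), Il1a (0.956), Il1r2 (0.940), Gbp4 (0.937), Serpina3f (0.936), Gbp5 (0.936), Retnlg (0.935), Osm (0.923) and Gp49a (0.922), by Pearson's r of log2 CPM with the mean log2 CPM of the 8. Il1a and Il1b encode the cytokines of interleukin 1 and Il1r2 its decoy receptor, Cxcl2 is a ligand of Cxcr2, Osm is the cytokine oncostatin M, and Gbp4 and Gbp5 are interferon-induced GTPases. The 8 genes themselves gave r of 0.884 to 0.963 between pairs over the 30 libraries, with a median of 0.918 (Spearman's rho 0.711 to 0.941). Differences between treatment groups that chose the 8 genes are contained in these values.

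Whether male and female mice differed in these genes was not part of their choice and was tested. In vehicle, fitted log2 fold changes of males over females ran from −0.98 (Irg1) to 4.77 (S100a8), with 2 of the 8 at an unadjusted p under 0.05. EdgeR called 0 of the 8, beside 0.178% of tested genes, and DESeq2 called 0. None of the 8 could be called there, since their highest group mean FPKM was 0.66 (S100a9), below the minimum of 1. Only the p-values, which do not use that minimum, bear on a sex difference in vehicle. S100a8 was at 0 in every vehicle-treated female, and male vehicle replicate 1 held 16 of its 19 counts in vehicle-treated males. The size of its difference is thus not a bound. The lowest adjusted p was that of Cxcr2 (log2 fold change 4.39 ± 1.82 SE, adjusted p = 0.191, edgeR), which had 1 to 5 counts in every vehicle-treated male and 0 in every vehicle-treated female. At 9 weeks the differences lay between −0.38 (Trem1) and −0.06 (Irg1), with standard errors of 0.76 to 1.04, and edgeR called 0 of the 8 (0.0492% of tested genes; 0 at an unadjusted p under 0.05 and 0 by DESeq2), each with an adjusted p of 0.999. Without female 9-week replicate 4 all 8 differences at 9 weeks were above 0, from 0.75 (Cxcr2) to 1.44 (Irg1). Those of S100a9, Csf3r, Clec4d, Clec4e and Irg1 were also above 0 without male 9-week replicate 4, from 0.036 (S100a9) to 0.234 (Irg1). Without male 9-week replicate 5 the same genes lay between 0.0065 (S100a9) and 0.175 (Irg1). Their direction thus did not hold when single mice were left out. At 15 weeks they ran from 0.20 (Csf3r) to 2.45 (Trem1, ± 1.14 SE, adjusted p = 0.375, edgeR), and edgeR called 0 of the 8 (0.184% of tested genes), with 1 at an unadjusted p under 0.05 and 0 by DESeq2. Only S100a8 (1.91) and S100a9 (2.68) reached the FPKM minimum there, so no other gene of the 8 could be called.

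The response to AOM/DSS was compared between the sexes as an interaction. At 9 weeks the male minus female response ran from −5.07 (S100a8) to 0.92 (Irg1) on the log2 scale, and edgeR called 0 of the 8, beside 0% of tested genes, with 1 at an unadjusted p under 0.05 (Cxcr2, −4.65 ± 1.99 SE, adjusted p = 0.645) and 0 called by DESeq2. S100a8 and Cxcr2 were at 0 in every vehicle-treated female, so the size of their interactions is not a bound. At 15 weeks edgeR again called 0 of the 8 (0% of tested genes), with 0 at an unadjusted p under 0.05, 0 by DESeq2, and a lowest adjusted p of 0.781. In all 5 sets of tests the count stayed at 0 when each library of the compared groups was left out in turn, male vehicle replicate 1 and female 9-week replicate 5 included. The FPKM minimum of 1 fixed part of these counts in advance. None of the 8 reached it in vehicle, only S100a8 and S100a9 did at 15 weeks, and Cxcr2 (0.383) and Trem1 (0.665) did not at 9 weeks. In the fits of all 30 libraries no adjusted p of the 8 lay below 0.05 in these tests, with or without that minimum. None of these tests shows that the sexes were alike.

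**Figure D3:**
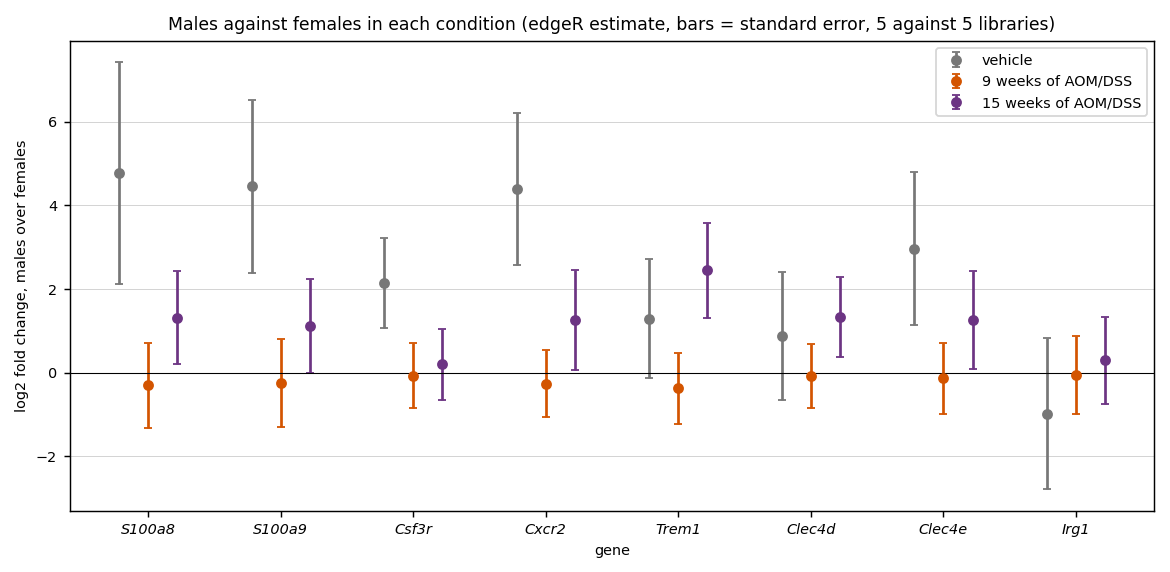
Points are the fitted log2 fold changes of males over females for the 8 genes in vehicle, at 9 weeks and at 15 weeks, and bars are 1 standard error of the edgeR fit. At 9 weeks all 8 points lie just below 0, between −0.38 and −0.06, and in vehicle the bars are widest.

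Genes that act with the 8 genes were taken from 11 lists, in which 74 genes were tested. The lists were chosen with earlier results of these data known, so the counts of calls within them are a description. At 9 weeks edgeR called 32 of the 74 higher, beside 5.51% of all tested genes, and 0 lower (2 lower at an unadjusted p under 0.05, 0 lower by DESeq2), with a median log2 fold change of 1.13 against −0.02 over all tested genes. Among the ligands of Cxcr2 and Csf3r, all 4 tested chemokines were called higher, with a median of 5.61, or 3.97 with genes near 0 at their bound. Cxcl2 was at least 106-fold and Cxcl3 at least 21.2-fold the vehicle floor, and Cxcl5 changed by a log2 fold of 3.53 ± 0.63 (SE, edgeR adjusted p = 0.000251). Csf3, which encodes G-CSF, and the chemokine gene Ppbp were also listed but not tested. Csf3 had at most 21 counts in any library, and Ppbp had its highest count, 632, in male vehicle replicate 1. Of 8 tested genes that bacterial lipopolysaccharide induces together with Irg1, 6 were called higher (median 5.23, or 4.08 with bounds). These included Il1a (6.97 ± 0.96, adjusted p = 8.88e-06), Il1b (6.88 ± 0.91, adjusted p = 5.25e-06) and the prostaglandin synthase Ptgs2 (5.48 ± 0.88, adjusted p = 7.61e-05). The 11 enzymes that supply or are targets of itaconate, such as aconitase and succinate dehydrogenase, gave 0 calls in either direction by edgeR (2 lower at an unadjusted p under 0.05, 0 by DESeq2), with a median of −0.11.

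Among 5 tested granule protein genes, 3 were called higher at 9 weeks (median 3.29). They were Retnlg, a resistin-like protein (5.08 ± 0.90 SE, edgeR adjusted p = 0.000216), Lcn2, the siderophore-binding lipocalin that epithelium also makes (4.85 ± 1.02, adjusted p = 0.00135), and Pglyrp1, which binds peptidoglycan (1.04 ± 0.15, adjusted p = 2.44e-05). Pglyrp1 already averaged 136 CPM in vehicle, where Retnlg averaged 0.0228 CPM and Lcn2 0.269 CPM. Neutrophil surface genes gave 6 calls of 12 (median 1.90), among them Il1r2 (4.36 ± 0.72, adjusted p = 0.000111), the Fc receptor Fcgr4 (3.02 ± 0.61, adjusted p = 0.000861) and Cd177 (1.93 ± 0.27, adjusted p = 1.21e-05). Cd177, like Pglyrp1, was already high in vehicle-treated mice, and which cells held the RNA of these genes was not tested. Of 7 adaptor and signalling genes of Trem1 and Clec4e, 3 were called higher (median 0.64), Tyrobp by 1.69 ± 0.34, Fcer1g by 1.42 ± 0.26 and the kinase Syk by 0.64 ± 0.12. The phagocyte NADPH oxidase, which makes superoxide, gave 5 calls of 6 (median 1.07), with Cybb at 1.68 ± 0.42, Ncf1 at 1.51 ± 0.29 and Ncf4 at 1.22 ± 0.32. The genes that sense calprotectin gave 1 of 5, Cd14 at 1.41 ± 0.22, with a list median of 0.20. The C-type lectins beside Clec4d and Clec4e gave 1 of 5, Clec4n at 2.32 ± 0.46, and the Trem family 0 of 2 by edgeR (1 higher at an unadjusted p under 0.05, 0 by DESeq2). Of 9 other S100 genes, 3 were called higher, S100a11 (1.02 ± 0.14), S100a14 (0.89 ± 0.23) and S100a16 (0.57 ± 0.15), with a list median of 0.18.

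At 15 weeks against vehicle edgeR called 14 of the 74 genes higher, beside 3.46% of tested genes, and 0 lower (1 lower at an unadjusted p under 0.05, 0 lower by DESeq2), or 8 higher without male 15-week replicate 5. At 15 weeks against 9 weeks 19 were called lower, beside 1.91% of tested genes, and 1 higher, Clybl, which degrades a product of itaconate (0.42 ± 0.10 SE, edgeR adjusted p = 0.0217). The 20 calls became 8 without female 9-week replicate 4. Il1a (log2 fold change −4.45), Il1b (−4.37), Ptgs2 (−5.58), Cxcl2 (−4.54), Cxcl3 (−4.89), Il1r2 (−3.19) and Retnlg (−2.50) were all called lower at 15 weeks. The 23 genes named from the lists were picked for being high at 9 weeks in these same libraries, so their fall is a description. Among them 12 were called lower, and Lcn2, Pglyrp1, Cd177, Cxcl5, Syk, Clec4n, Ncf1, Ncf4, S100a11, S100a14 and S100a16 were not. Mean Cd177 was 138, 533 and 325 CPM in vehicle, at 9 weeks and at 15 weeks. Il1b by contrast averaged 0.466, 54.5 and 2.43 CPM.

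**Figure D4:**
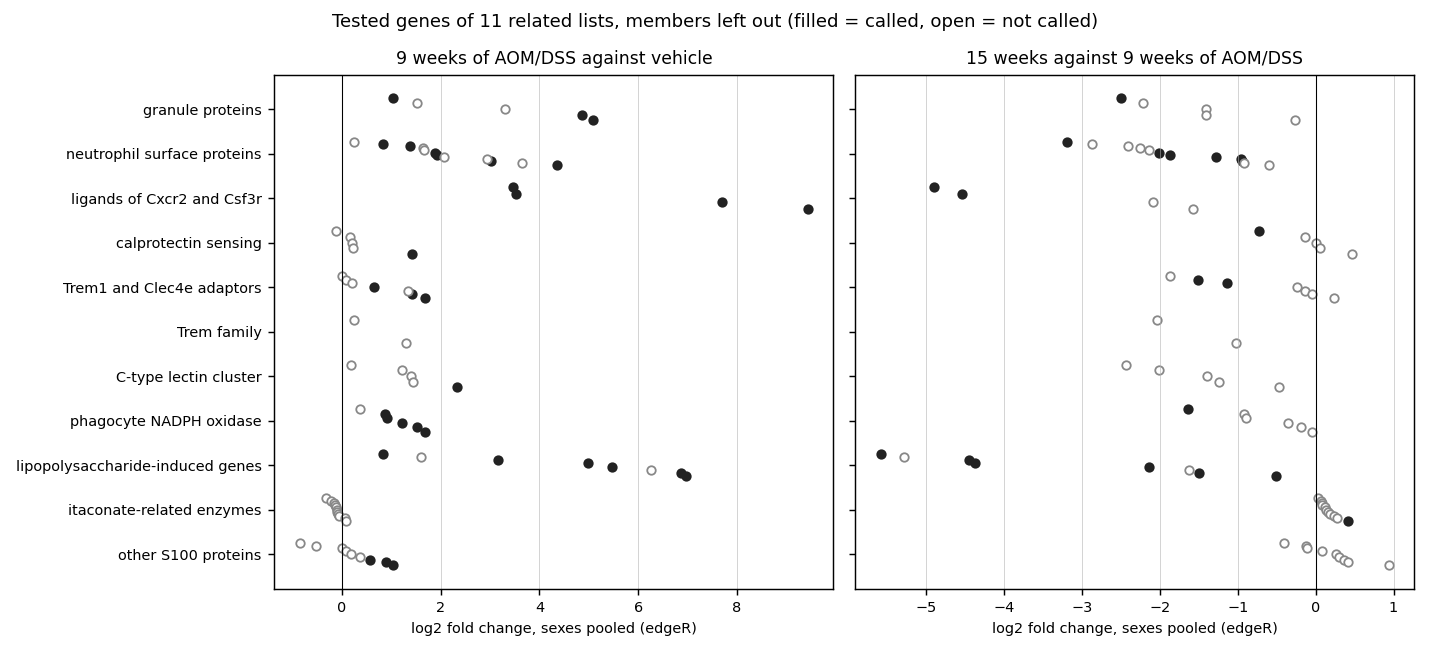
Each point is a tested gene of 1 of the 11 lists, placed by its fitted log2 fold change at 9 weeks over vehicle and at 15 over 9 weeks, and filled points passed the call. The chemokine ligands and the genes induced together with Irg1 lie farthest from 0, while the 11 itaconate enzymes lie close to 0.

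Other genes used to define neutrophils were also measured. Ly6g, the mouse neutrophil surface antigen, had 310 to 5398 counts in vehicle and 193 to 4009 counts at 9 weeks, with a log2 fold change of 0.24 (edgeR adjusted p = 0.763). Its mean was already 90.3 CPM in vehicle, where S100a8 was at 0.0693 CPM, so its level says little about a small share of neutrophils. Which cells the Ly6g counts came from was not tested. The genes of primary granules, which are transcribed in bone marrow precursors, were at or near 0 in every library. Elane and Ctsg had 0 counts in all 30, Mpo had at most 3 counts and Prtn3 at most 3. The granule genes Mmp8, Ngp and Camp and the receptors Fpr1 and Cxcr1 had too few counts to be tested, and all had their highest mean at 9 weeks. Mmp8, the neutrophil collagenase, was at 0 in all 10 vehicle libraries, averaged 0.402 ± 0.401 CPM at 9 weeks with 1 library at 0, and averaged 0.0116 CPM at 15 weeks. Fpr1, a receptor for bacterial formyl peptides, averaged 0.00410, 0.283 and 0.0577 CPM in vehicle, at 9 weeks and at 15 weeks. Ngp was at 0 in vehicle and at 15 weeks and averaged 0.113 CPM at 9 weeks, and Cxcr1 averaged 0, 0.0597 and 0.00805 CPM. These genes and Camp, which had at most 6 counts in any library, were all highest in female 9-week replicate 4, as the 8 genes were. The defining markers of primary granules were thus at or near 0, while several of later granules were present at low counts, and the 8 genes are called here by their symbols. Of 8 macrophage markers none was at 0 in vehicle or at 9 weeks, and their summed level was 18.4 to 147 CPM in vehicle (median 36.0), 25.6 to 105 CPM at 9 weeks (median 77.5) and 21.4 to 72.5 CPM at 15 weeks (median 38.8). The 147 CPM were those of male vehicle replicate 1, the library with most of the vehicle counts of S100a8 and S100a9, and the next vehicle library was at 80.1 CPM. The same library had the highest monocyte sum of the vehicle libraries, 31.96 CPM against at most 19.1 CPM. It also had the highest summed markers of stratified epithelium, 328 CPM against at most 4.05 CPM in the other vehicle libraries. Which cells held its S100a8 and S100a9 counts was not tested. At 9 weeks 2 of the 8 macrophage markers, 1 of 4 monocyte markers and 1 of 4 dendritic cell markers were called higher, beside 5.51% of tested genes. The part of these cells in the levels of the 8 genes was not tested.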

How the data were processed

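RNA of 30 colon scrapes, 1 mouse each, was sequenced as stranded poly(A)-selected libraries, and the groups were taken from the labels. The deposited counts are the authors' featureCounts values on 46078 genes after alignment to GRCm38 with STAR, not normalized and with duplicate reads kept. The deposited FPKM and TPM are the authors' StringTie estimates, one file per library, in which 11 to 20 repeated gene lines were added and 6 genes were missing from at least 1 file. The submitters' processing notes also name Trim Galore, CASAVA and bcl2fastq 2.20.0.422. Genes were kept by filterByExpr (16261 genes) and tested on counts with edgeR 4.0.16 in R 4.3.3, by the quasi-likelihood test with 1 coefficient per group over all 30 libraries, TMM factors of 0.832 to 1.10, and Benjamini-Hochberg adjustment over all tested genes. The fit was tested on simulated data. Fold changes of low genes from group means were set against a floor of 3 counts per library. Log2 CPM used a prior count of 2. DESeq2 1.42.0, RLE size factors, no low-count filter, no FPKM minimum, the compared libraries alone, the replicate block and leaving out each library were the alternatives. Libraries of the same group were compared in 60 pairs, and none was a copy of another. The labels call the 5 mice of a group biological replicates. The 8 genes and all lists were chosen with earlier results of these data known. Named from each list were up to 3 genes with the largest change among those called at 9 weeks, and the 10 genes most like the mean of the 8. A gene named outside this rule was chosen after its values were seen. Promoters were read from RefSeq windows of GRCm38.p6, in which all 8 genes matched by symbol, Irg1 as Acod1. Python 3.11.15, pandas 2.3.3 and matplotlib 3.10.9 made the tables and plots.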

Additional observations from a re-analysis of the deposited data

Results flagged for a closer look

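Within each group of 5, a library was singled out when its gap to the nearest other took up more of the group's range than Dixon's 95% value allows. For normally distributed values, chance does this in about 1 of 20 groups. That rate does not hold for groups near 0 counts, where 1 small count can take up nearly the whole range. Of 174 combinations of a named gene and a group, 16 were singled out, and values are log2 CPM. Among the 8 genes these were low counts in vehicle, Trem1 in female replicate 1 (−2.17, 4 counts), Trem1 in male replicate 2 (−1.39, 7 counts) and Irg1 in female replicate 1 (−1.21, 10 counts). Female vehicle replicate 1 also stood above its group in Cd14 (5.70) and Il1a (−1.96), so 4 of the 16 fell on this library, and leaving it out moved the fold of Irg1 from 188 to 374. Male 15-week replicate 5, the highest 15-week library for S100a8 and S100a9, stood above its group in Lcn2 (4.54, 677 counts against a group median of 9) and Pglyrp1 (8.72). Female 9-week replicate 5 stood below its group in Cd177 (7.31) and S100a16 (6.65). The rest were Retnlg in male vehicle replicate 4 (highest, −2.19), Cxcl3 in female 15-week replicate 3 (highest, −2.05), Cd14 in male 9-week replicate 5 (lowest, 5.65), Fcer1g in female vehicle replicate 3 (lowest, 0.57) and in female 15-week replicate 2 (highest, 2.66), Cybb in female 15-week replicate 1 (lowest, −0.41) and Ncf4 in male vehicle replicate 3 (lowest, −0.030).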

How the results depend on the processing

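At 9 weeks against vehicle with the sexes pooled, 5 to 6 of the 8 genes were called when each library was left out in turn. At 15 weeks against vehicle, 2 were called, 4 without the FPKM minimum and 1 with the replicate block, and 0 to 2 when leaving out a library, 0 without male 15-week replicate 5. At 15 against 9 weeks the count was 3 to 6 when leaving out a library. In females at 9 weeks it was 0 with the compared libraries alone and 3 to 6 when leaving out a library, and in males 3 to 6. At 15 weeks against vehicle, where 0 were called within 1 sex, DESeq2 called 1 in females and 1 in males, and males gave 1 without the FPKM minimum and 1 without both libraries that stood apart. At 15 against 9 weeks DESeq2 called 3 in females and 2 in males, leaving out a library gave 0 to 6 in females, and leaving out both libraries that stood apart gave 6 in females and 1 in males. Of the genes of the 11 lists, 14 were called at 15 weeks against vehicle, 8 with the replicate block and 8 to 15 when leaving out a library, and 20 at 15 against 9 weeks, 8 to 26 when leaving out a library, with 12 or 13 without each of 5 other libraries. The median r between the 8 genes was 0.918, 0.872 with a prior count of 0.5, 0.971 in the 9-week libraries only and 0.946 on log2(TPM + 0.1). Where not stated, the cause of a change was not tested.

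With the replicate block the sex difference at 9 weeks turned to 0.019 for Cxcr2, 0.15 for Clec4e and 0.11 for Irg1. The numbers do not pair the mice, since of 75 pairs with the same number 12 had deviations with r over 0.1 (−0.58 to 0.47) and 4 of 30 libraries lay closest to their own number. Leaving out a library, the log2 sex difference at 9 weeks ran from −0.85 to 0.999 for S100a8, −0.88 to 1.19 for S100a9, −0.41 to 1.04 for Csf3r, −0.56 to 0.75 for Cxcr2, −0.72 to 1.07 for Trem1, −0.43 to 0.97 for Clec4d, −0.74 to 1.19 for Clec4e and −0.67 to 1.44 for Irg1. In vehicle it ran from −2.11 to 1.55 for Irg1, and at 15 weeks from −0.66 to 1.55 for S100a9, −0.61 to 0.97 for Csf3r and −0.66 to 0.91 for Irg1. The male minus female response at 9 weeks ran from −3.12 to 0.10 for Clec4d and −1.61 to 2.41 for Irg1, and at 15 weeks from −1.79 to 2.12 for Trem1, −1.70 to 0.89 for Clec4d, −3.15 to 0.24 for Clec4e and −1.26 to 2.40 for Irg1. The change at 15 weeks against vehicle ran from −0.075 to 3.80 for Trem1 in females and −0.73 to 0.58 for Cxcr2 in males. Clec4d could not be fitted in some comparisons with the compared libraries alone. Depth limits vehicle values most, since 58 of the 240 values were 0 counts.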

Other observations

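Mast cells and plasma cells are other white cells of the colon lining whose marker genes were measured. Mcpt1 and Mcpt2, proteases of mucosal mast cells, were called higher at 9 weeks (log2 fold change 4.58 ± 0.74 SE, edgeR adjusted p = 8e-05, and 5.15 ± 0.86, adjusted p = 0.000115). They were also called higher at 15 weeks against vehicle (3.71 ± 0.72, adjusted p = 0.00162, and 4.39 ± 0.85, adjusted p = 0.00143). Male 15-week replicate 5 held 43.0 CPM of the summed mast cell markers, the next 15-week library 14.5 CPM, and the median was 14.04 CPM at 9 weeks and 3.71 CPM at 15 weeks. At 15 against 9 weeks Mcpt1 and Mcpt2 gave −0.87 and −0.76 (adjusted p = 0.385 and 0.490). Without that library Mcpt1 was called lower (−1.91 ± 0.55, adjusted p = 0.0395), Mcpt2 gave −1.85 ± 0.61 (adjusted p = 0.0734), and at 15 weeks against vehicle Mcpt1 stayed called and Mcpt2 missed only the FPKM minimum. Leaving out each library was chosen for these markers after seeing the data. Of 4 plasma cell markers, 3 were called higher at 9 weeks, beside 5.51% of tested genes. They were the immunoglobulin gene Iglv1 (2.84 ± 0.63), Jchain (2.15 ± 0.47) and Mzb1 (1.90 ± 0.52). At 15 weeks against vehicle 1 was called higher, beside 3.46% of tested genes, Iglv1 (2.09), which was not called without male 15-week replicate 1. Of 6 smooth muscle and mesenchyme markers, 5 were called lower at 15 weeks against vehicle, with a list median of −2.31. Of all 16261 tested genes, 1195 were called in either direction in that comparison. The count of called markers was 0 without male vehicle replicate 1 (median −1.08), which held 3794 CPM of these markers against at most 375 CPM in the other vehicle libraries, and also 0 without female vehicle replicate 1 (median −1.65). Without female 15-week replicate 1 it was 2, and it was 3 without female 15-week replicate 2, female 15-week replicate 4, male 15-week replicate 1 or male vehicle replicate 5.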
